A study of Mus musculus with 42 samples.

Results

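The enzymes described here carry out mitochondrial beta-oxidation of fatty acids. They are the products of 10 genes taken as a group: Cpt2, Acadvl, Acadl, Acadm, Hadha, Hadhb, Hadh, Eci1, Decr1 and Etfdh. The group was chosen with earlier results of these data known. Each gene had 1 probe set that carried its symbol and no other, so all 10 were measured, out of 17989 genes represented by their brightest single-symbol probe set. Liver RNA came from male mice of the inbred strain C3HeB/FeJ, and 42 arrays were measured. High-fat diet (HFD) was given for 7 days (8 arrays, mice 15 weeks old), 14 days (8 arrays, 16 weeks old) or 21 days (8 arrays, 17 weeks old), and the 18 control arrays came from mice on a low-fat diet for up to 21 days, aged 15 to 17 weeks. All animals were wild type, housed singly and, per the labels, random fed. The controls were pooled over age, so time on the diet and age rose together in the HFD groups. The labels give replicate numbers but do not tie a number to an animal, so the tests measure variation among arrays, which may in part be technical. The study asked how the liver transcriptome changed during the early weeks of the diet.

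Beta-oxidation shortens a fatty acyl-CoA inside the mitochondrion by repeated rounds of 4 reactions: a dehydrogenation, a hydration, a further dehydrogenation and a thiolytic cleavage that releases acetyl-CoA. Long chains enter as acylcarnitines and are turned back into acyl-CoA at the inner membrane, and chain length decides which dehydrogenase acts. Electrons leave the acyl-CoA dehydrogenases through a flavoprotein to ubiquinone, and unsaturated chains need auxiliary enzymes that move or reduce their remaining unsaturated bonds. In liver the pathway feeds ketone body synthesis and is known as a target of the nuclear receptor PPAR-alpha.

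Values are log2 signals after robust multi-array averaging (RMA), and changes are differences of group means on that scale. Signals of different probe sets were not set against each other. The 95th percentile of olfactory receptor genes, used as a background level, was 2.86, and the lowest member value on any array was 6.19 (Cpt2). All 9 measured hepatocyte markers lay above background in the mean over arrays, and their average per array ran from 11.9 to 12.2 at 7 days, from 11.8 to 12.2 at 14 days, from 11.7 to 12.2 at 21 days and from 11.9 to 12.3 in controls. Markers of pancreatic acinar cells varied within every group. The average of the 15 measured markers per array ran from 3.44 to 8.83 at 7 days, from 3.39 to 8.61 at 14 days, from 3.36 to 6.05 at 21 days and from 3.36 to 7.94 in controls, and 0 of the 15 were called in any comparison with controls. Of 12 macrophage markers, 3 were called higher at 7 days, against 1.16% of all genes, and 0 at 14 or 21 days. Their changes were above 0 for 11, 10 and 9 of the 12 at 7, 14 and 21 days (median log2 change 0.27, 0.13 and 0.10). At 7 days 7 had an unadjusted limma p under 0.05. Their average per array ran from 5.38 to 5.75 at 7 days, from 5.21 to 5.67 at 14 days, from 4.88 to 5.535 at 21 days and from 4.88 to 5.5 in controls. Their part in the members' changes was not tested. Adipocyte markers averaged 2.75 to 2.94 per array at 7 days, 2.76 to 3.13 at 14 days, 2.64 to 3.05 at 21 days and 2.80 to 3.13 in controls, close to background. In the titles, the word reanalysis stands on control and 21-day arrays and is missing from 7-day and 14-day ones. Any batch along this divide cannot be told apart from the diet at 7 and 14 days, or from time between 21 days and the earlier times.

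The sequences before the transcription starts are shown for 4 members, because Hadha and Hadhb share theirs, Acadl holds the most matches to a GC box, and Acadm and Acadvl are the members with a nuclear receptor core. RefSeq (GRCm38.p6) gave a start for 9 of the 10 members, all but Decr1. Each stretch holds the 250 bases before the start, 5′ to 3′ on the gene's strand. Capitals mark GGGCGG, the core of a GC box, and AGGTCA, the core recognised by nuclear receptors, each read on both strands. Hadhb lies at chr5:30155003-30155252 (plus strand), Acadl at chr1:66863310-66863559 (minus), Acadm at chr3:153944644-153944893 (minus) and Acadvl at chr11:70015429-70015678 (minus).
Hadhb: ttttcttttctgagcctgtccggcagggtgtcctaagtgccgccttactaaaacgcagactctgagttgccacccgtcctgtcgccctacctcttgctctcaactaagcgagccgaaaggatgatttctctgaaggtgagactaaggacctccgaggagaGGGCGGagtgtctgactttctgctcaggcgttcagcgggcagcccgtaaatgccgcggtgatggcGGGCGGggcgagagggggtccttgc
Acadl: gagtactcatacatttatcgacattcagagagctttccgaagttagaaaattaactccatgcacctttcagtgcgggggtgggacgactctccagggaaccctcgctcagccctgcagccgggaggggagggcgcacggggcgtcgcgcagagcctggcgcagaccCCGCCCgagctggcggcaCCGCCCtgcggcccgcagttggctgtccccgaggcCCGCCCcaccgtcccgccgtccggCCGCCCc
Acadm: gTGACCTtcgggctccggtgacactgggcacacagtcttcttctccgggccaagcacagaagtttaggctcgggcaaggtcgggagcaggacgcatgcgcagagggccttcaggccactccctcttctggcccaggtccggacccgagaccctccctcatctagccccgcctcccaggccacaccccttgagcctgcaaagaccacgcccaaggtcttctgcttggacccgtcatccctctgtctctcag
Acadvl: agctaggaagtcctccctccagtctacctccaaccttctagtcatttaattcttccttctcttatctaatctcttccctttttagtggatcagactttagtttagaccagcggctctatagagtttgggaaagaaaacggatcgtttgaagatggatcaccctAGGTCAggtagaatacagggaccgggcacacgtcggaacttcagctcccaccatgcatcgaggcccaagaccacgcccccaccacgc
Hadha and Hadhb, the subunit genes of the mitochondrial trifunctional protein, are transcribed away from each other with 272 bases between their starts, and 228 of the 250 bases shown for Hadhb also precede Hadha on the other strand. GGGCGG was found in 6 of the 9 member stretches (Hadha, Hadhb, Hadh, Acadl, Cpt2 and Eci1, of which Hadha's match is also 1 of the Hadhb matches) and in 32.7% of 32851 stretches of the same length. AGGTCA was found in those of Acadm and Acadvl, 2 of 9, against 14% of all. The motifs do not overlap in these stretches. A match describes letters only, and a stretch without one says nothing about binding elsewhere.

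The mean level of every member was higher on HFD than in controls at each time, by 1.07-fold to 1.63-fold, and part of these differences passed the test. After 7 days 6 of the 10 members were called higher and 0 lower (limma adjusted p under 0.05 over all genes), against 1.16% of all genes called higher and 0.239% lower. After 14 days 5 were called higher and 0 lower, against 0.506% and 0.161% of all genes, and after 21 days 4 were called higher and 0 lower, against 0.445% and 0.256%. Leaving out single arrays took the 21-day count as low as 2, the calls lost being those of Hadhb and Eci1. The mean difference was above 0 for 10 of 10 members at each time, as for 46.2%, 47.9% and 53.4% of all genes at 7, 14 and 21 days. The median log2 change of the 10 was 0.51 at 7 days, 0.42 at 14 days and 0.34 at 21 days, where the median of all genes was -0.01, -0.00 and 0.01. Hadh, Hadhb and Decr1 were called at all 3 times, as were 0.345% of all genes. Hadha and Acadl were called at 7 and 14 days, Eci1 at 7 and 21 days, and Acadm, Acadvl, Cpt2 and Etfdh at no time. Thus 6 of 10 were called at 1 or more times, against 1.23% of all genes. The 3 comparisons use the same 18 controls, so their calls are not independent of each other. All 10 members had an unadjusted p under 0.05 at 7 and 14 days (5.26% and 3.16% of all genes were higher with such a p) and 7 of 10 at 21 days (4.15%). In bulk tissue a change in a cell type's share and a change in RNA per cell cannot in general be told apart. The 9 hepatocyte markers had median log2 changes of 0.01, 0.02 and -0.06 at 7, 14 and 21 days, and 0 of 9 were called. Their highest changes were 0.12, 0.10 and 0.04 at these times, and their lowest were -0.40, -0.32 and -0.46. The change was above 0 for 5, 5 and 1 of the 9, and 1, 2 and 3 had an unadjusted limma p under 0.05. Array scaling moved the direction of calls over all genes: 82.9% of those at 7 days were higher as deposited and 71.2% after quantile normalization, which left 6 members called at that time. The plot of changes with intervals shows every member at the 3 times.

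**Figure D1:**
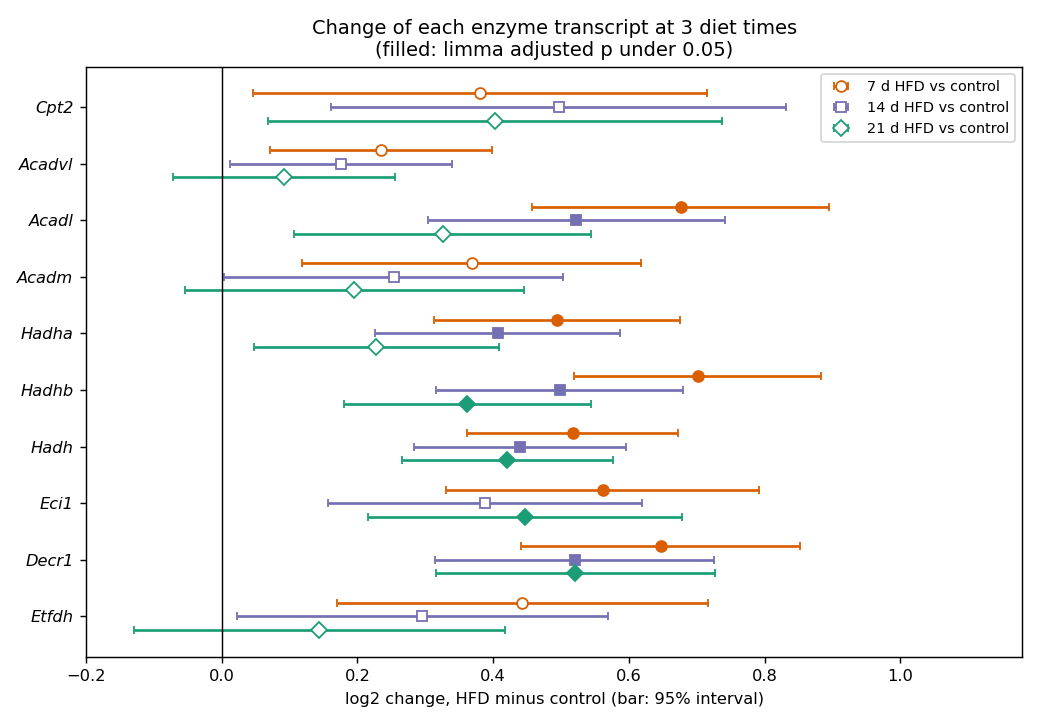
Log2 change of each enzyme transcript (HFD mean minus control mean, horizontal axis) with its 95% interval, for 7, 14 and 21 days of HFD (circles, squares and diamonds, 8 arrays each) against 18 controls; filled symbols passed the limma test. All 30 points lie above 0, from 0.09 for Acadvl at 21 days to 0.70 for Hadhb at 7 days.

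Entry into the mitochondrion was represented by Cpt2, the inner-membrane carnitine palmitoyltransferase that reforms acyl-CoA from acylcarnitine. Its log2 signal ran from 7.65 over a median of 8.0 to 8.60 at 7 days, from 7.82 over 8.11 to 8.38 at 14 days, from 7.23 over 7.97 to 8.65 at 21 days, and from 6.19 over 7.65 to 8.23 in controls. The groups overlapped at every time, and the control arrays were the most spread of any member (SD 0.49, n = 18). The log2 change was 0.38 at 7 days (95% interval 0.05 to 0.72, limma adjusted p = 0.445), 0.50 at 14 days (0.16 to 0.83, adjusted p = 0.341) and 0.40 at 21 days (0.07 to 0.74, adjusted p = 0.569). None of these passed the test, and the intervals reach up to a 1.78-fold difference at 14 days.

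Of the 3 acyl-CoA dehydrogenases, which open each round and differ in the chain length they take, Acadl was called. Acadl, the long-chain enzyme, ran from 8.11 over a median of 8.66 to 8.86 at 7 days, from 7.88 over 8.45 to 8.71 at 14 days and from 7.76 over 8.23 to 8.60 at 21 days, against 7.34 over 7.92 to 8.27 in controls. At 7 days 6 of 8 arrays and at 14 days 7 of 8 arrays lay above the highest control, and at 21 days 4 of 8 did. Acadl rose 1.60-fold at 7 days (log2 change 0.68, SE 0.11, limma adjusted p = 4.94e-05) and 1.44-fold at 14 days (0.52, SE 0.11, adjusted p = 0.00504), and its change of 0.33 at 21 days did not pass (SE 0.11, adjusted p = 0.291). Acadm, the medium-chain enzyme, ran from 9.95 over 10.47 to 10.60 at 7 days, from 9.98 over 10.21 to 10.71 at 14 days and from 9.62 over 10.26 to 10.68 at 21 days, against 9.49 over 10.07 to 10.52 in controls. Its changes of 0.37, 0.25 and 0.20 at 7, 14 and 21 days did not pass (limma adjusted p = 0.184, 0.821 and 0.885). Among 15 alternative settings they passed in 3 at 7 days, 1 at 14 days and 1 at 21 days. Acadvl, the very-long-chain enzyme of the inner membrane, had the smallest changes of the 10 at each time, 0.23 at 7 days, 0.18 at 14 days and 0.09 at 21 days (SE 0.08 each, adjusted p = 0.205, 0.764 and 0.955). Acadvl nevertheless lay above the control mean on 8 of 8 arrays at 7 days and 8 of 8 at 14 days, and its controls were tightly grouped (8.59 ± 0.14, SD, n = 18).

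The mitochondrial trifunctional protein takes long chains through the last 3 reactions of a round. Hadha, the subunit with the hydratase and dehydrogenase activities, ran from 9.12 over a median of 9.36 to 9.60 at 7 days, from 8.97 over 9.34 to 9.44 at 14 days and from 8.67 over 9.05 to 9.50 at 21 days, against 8.45 over 8.89 to 9.12 in controls. At 7 and at 14 days 7 of 8 arrays lay above the highest control, and at 21 days 4 of 8 did while 3 lay below the control mean. Hadha rose 1.41-fold at 7 days (log2 change 0.49, SE 0.09, limma adjusted p = 3.75e-04) and 1.33-fold at 14 days (0.41, SE 0.09, adjusted p = 0.0117), and the 21-day change of 0.23 did not pass (adjusted p = 0.518).

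Hadhb, the thiolase subunit, had the largest change of the 10 at 7 days. Its signal ran from 9.37 over a median of 9.87 to 10.08 at 7 days, from 9.45 over 9.62 to 9.70 at 14 days and from 8.97 over 9.54 to 9.90 at 21 days, against 8.84 over 9.12 to 9.61 in controls. At 7 days 7 of 8 arrays lay above the highest control, at 14 days 4 of 8 and at 21 days 2 of 8. Hadhb rose 1.63-fold at 7 days (log2 change 0.70, SE 0.09, limma adjusted p = 6.075e-07), 1.41-fold at 14 days (0.50, SE 0.09, adjusted p = 7.87e-04) and 1.28-fold at 21 days (0.36, SE 0.09, adjusted p = 0.0369). The 21-day call was kept in 30 of 42 fits without 1 array (highest adjusted p 0.158) and in 5 of 15 alternatives. The probe set needs a caution. RefSeq lists a pseudogene, Hadhb-ps, on chromosome 2. In the platform's numbering the Hadhb probe set stands between Kcna4 and Kif18a, which also lie on chromosome 2. Of the 10 named genes with the nearest probe set numbers, 0 lay on chromosome 5, where Hadhb is, whereas for each of the other 9 members 9 or 10 of 10 lay on its own chromosome. Signal from Hadhb and from a transcribed copy cannot be told apart here. Without Hadhb, a count added after this was seen, 5 of 9 members were called at 7 days, 4 of 9 at 14 days and 3 of 9 at 21 days, with median changes of 0.49, 0.41 and 0.33.

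Hadh, the hydroxyacyl-CoA dehydrogenase of the matrix that acts on short and medium chains, separated the groups most cleanly. It ran from 10.35 over a median of 10.55 to 10.73 at 7 days, from 10.16 over 10.48 to 10.63 at 14 days and from 10.14 over 10.46 to 10.70 at 21 days, against 9.58 over 10.07 to 10.27 in controls. At 7 days all 8 arrays lay above every control, the only member of which this held at any time, as it did for 0.228% of all genes at 7 days, 0.0778% at 14 days and 0.05% at 21 days. At 14 days 7 of 8 and at 21 days 6 of 8 arrays lay above the highest control. Hadh rose 1.43-fold at 7 days (log2 change 0.52, SE 0.08, limma adjusted p = 1.34e-05), 1.36-fold at 14 days (0.44, SE 0.08, adjusted p = 5.25e-04) and 1.34-fold at 21 days (0.42, SE 0.08, adjusted p = 9.01e-04).

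The auxiliary enzymes for unsaturated chains were both called. Decr1, the mitochondrial dienoyl-CoA reductase, ran from 9.14 over a median of 9.39 to 9.89 at 7 days, from 8.97 over 9.35 to 9.57 at 14 days and from 8.96 over 9.30 to 9.74 at 21 days, against 8.35 over 8.75 to 9.22 in controls. All 8 arrays at each HFD time lay above the control mean, and 6, 5 and 5 of 8 arrays at 7, 14 and 21 days lay above the highest control. Decr1 rose 1.57-fold at 7 days (log2 change 0.65, SE 0.10, limma adjusted p = 3.41e-05), 1.43-fold at 14 days (0.52, SE 0.10, adjusted p = 0.00253) and 1.44-fold at 21 days (0.52, SE 0.10, adjusted p = 0.00227). Eci1, the enoyl-CoA isomerase that shifts an unsaturated bond into the position the hydratase needs, ran from 8.44 over 8.90 to 9.46 at 7 days, from 8.44 over 8.76 to 9.0 at 14 days and from 8.31 over 8.89 to 9.41 at 21 days, against 7.91 over 8.35 to 8.79 in controls. It rose 1.48-fold at 7 days (0.56, SE 0.11, adjusted p = 0.00222) and 1.36-fold at 21 days (0.45, SE 0.11, adjusted p = 0.0486), and its change of 0.39 at 14 days did not pass (adjusted p = 0.159). The 14-day change of Eci1 passed in 3 of 15 alternatives and in 0 of 42 fits without 1 array. The 21-day call of Eci1 was kept in 13 of 42 fits without 1 array (highest adjusted p 0.214) and in 5 of 15 alternatives.

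Etfdh, the membrane oxidoreductase that hands the electrons of the acyl-CoA dehydrogenases to ubiquinone, had high levels on most 7-day arrays and the largest SD of the 10 at 21 days (0.50, n = 8). It ran from 9.89 over a median of 10.51 to 10.61 at 7 days, from 9.72 over 10.35 to 10.58 at 14 days and from 9.42 over 10.17 to 10.71 at 21 days, against 9.42 over 10.04 to 10.34 in controls. At 7 days 6 of 8 arrays lay above the highest control and 1, replicate 4, lay below the control mean. The change of 0.44 at 7 days (95% interval 0.17 to 0.72) did not pass (limma adjusted p = 0.105), nor did it in 41 of the 42 fits without 1 array (adjusted p up to 0.232). The exception left out the 7-day replicate 4, the lowest of its group, and gave 0.52 (adjusted p = 0.043). Among 15 alternatives the 7-day change passed in 4. These were only the groups compared, array weights, Malat1 as a covariate and HFD arrays 5 to 8 only (lowest adjusted p = 0.00297). At 14 and 21 days the changes were 0.30 and 0.14 (adjusted p = 0.755 and 0.965).

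**Figure D2:**
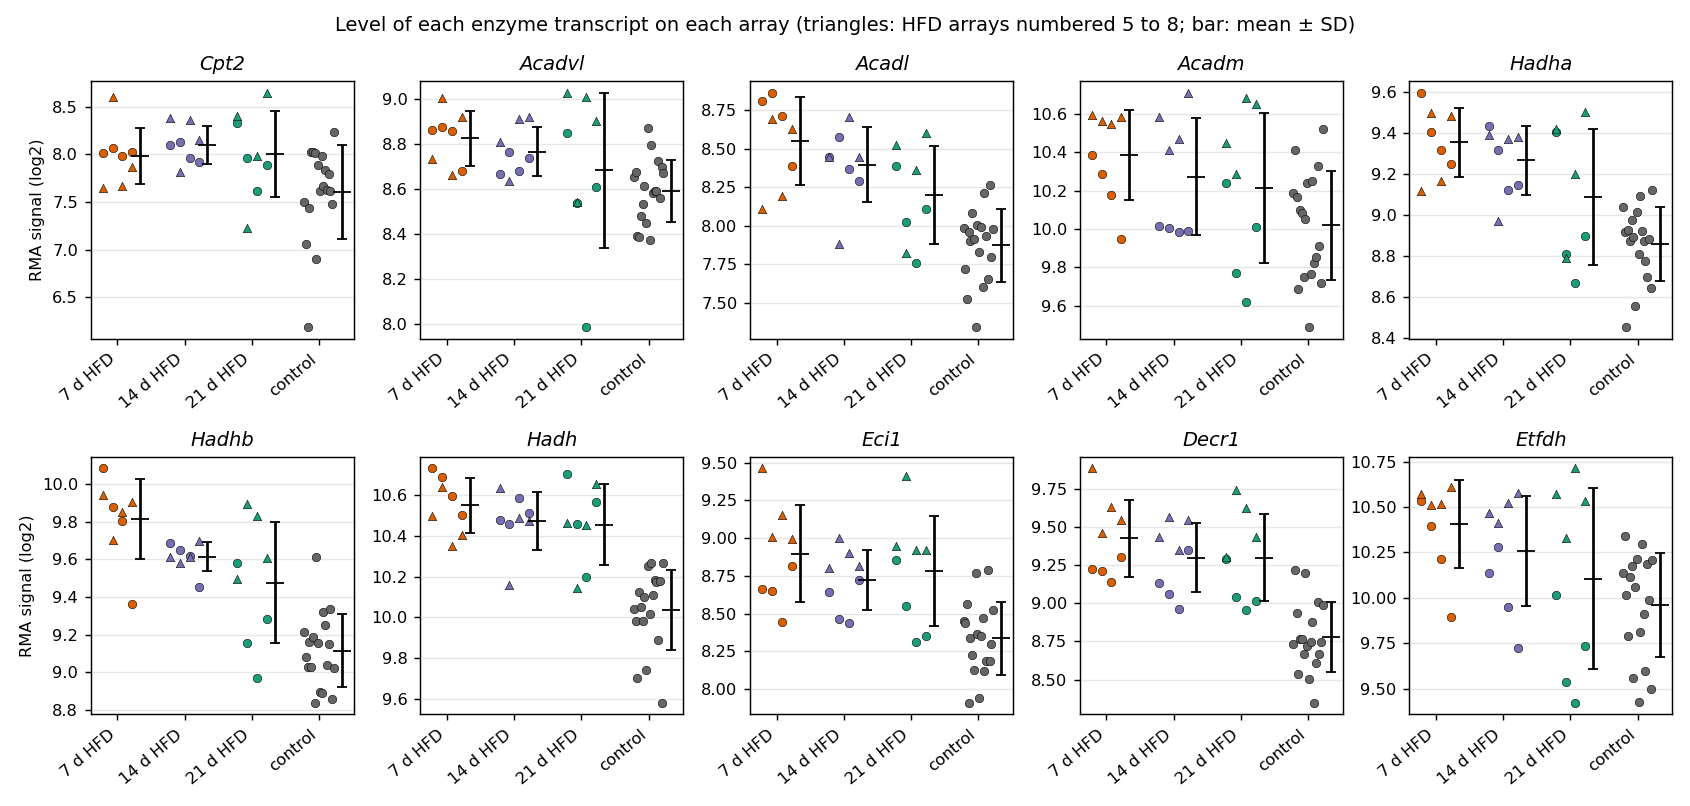
RMA log2 signal of each enzyme transcript on every array (vertical axis, own scale per panel) for 7, 14 and 21 days of HFD (8 arrays each) and controls (18 arrays); triangles are HFD arrays numbered 5 to 8, and the bar is mean ± SD. For Hadh all 7-day arrays lie above the highest control at 10.27, and for Acadm and Etfdh the triangles lie mostly above the circles of their group.

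No member was called different between diet times. In each of the comparisons of 14 with 7 days, 21 with 7 days and 21 with 14 days, 0 of 10 members were called, where limma called 0%, 0.00556% and 0% of all genes, and the F test for any difference among the 3 times called 0 of 10, against 0.00556%. At an unadjusted p under 0.05 the counts were 0, 3 and 0 members, and 2.51%, 7.13% and 3.97% of all genes. The F test gave an unadjusted p under 0.05 for the same 3 members and for 4.4% of all genes. The 3 were Hadhb, Acadl and Hadha, each lower at 21 than at 7 days. Hadhb averaged 9.48 ± 0.32 at 21 days and 9.82 ± 0.21 at 7 days (SD, n = 8 each), a difference of -0.34 (SE 0.11, limma adjusted p = 0.574). Acadl averaged 8.20 ± 0.32 at 21 days and 8.55 ± 0.28 at 7 days, a difference of -0.35 (SE 0.13, adjusted p = 0.613), and Hadha 9.09 ± 0.33 at 21 days and 9.35 ± 0.17 at 7 days, a difference of -0.27 (SE 0.11, adjusted p = 0.639). For Hadh, Decr1 and Cpt2 the 95% intervals of the difference between 21 and 7 days ran from -0.28 to 0.09, from -0.37 to 0.12 and from -0.37 to 0.42. The median difference of the 10 members was -0.16 between 21 and 7 days, where that of all genes was 0.01.

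The 21-day arrays were the most uneven. The SD at 21 days was above the control SD for 9 of 10 members, as it was for 63.3% of all genes, whereas this held for 4 of 10 at 7 days and 3 of 10 at 14 days (33.3% and 31.6% of all genes). Taking for each array the median of its 10 differences from the control means, the 7-day arrays ran from 0.37 to 0.64, the 14-day arrays from 0.22 to 0.56, the 21-day arrays from -0.13 to 0.63 and the controls from -0.22 to 0.22. At 21 days replicates 1, 5, 7 and 8 stood at 0.51, 0.54, 0.54 and 0.63, above every control. Replicates 2, 4 and 6 stood at 0.10, 0.10 and 0.19 and replicate 3 at -0.13, within the range of controls. Replicate 6 was high for Hadhb, Decr1 and Eci1 and low for Cpt2 (7.23), and replicate 3 held the lowest 21-day value of Hadha, Hadhb, Acadl, Acadm, Acadvl, Decr1, Etfdh and Eci1. The acinar marker mean was 4.60 on replicate 3 and 6.05 on replicate 6, and ran from 3.36 to 5.14 on the other 21-day arrays. Its part in the result was not tested for single arrays; with it as a covariate 2 members, Hadh and Decr1, were called at 21 days.

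**Figure D3:**
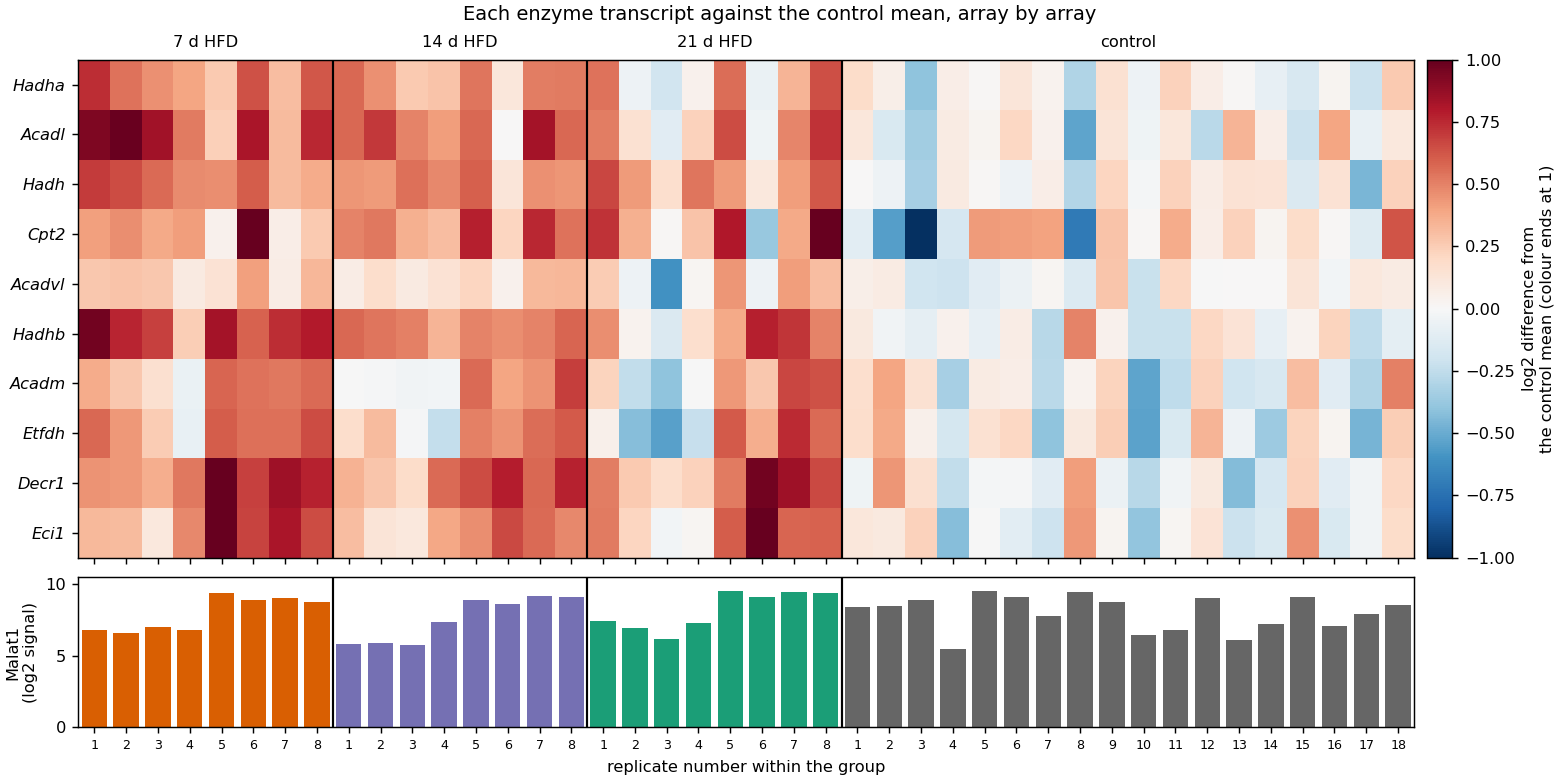
Log2 difference of each enzyme transcript from its control mean (colour, which ends at 1 in either direction) on every array of the 3 HFD groups and the controls, above the Malat1 log2 signal of the same arrays (bars). Among the 21-day arrays replicate 3 is blue or pale for most members, and Acadm, Etfdh, Decr1 and Eci1 are darker on HFD arrays 5 to 8, where Malat1 is high.

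Arrays numbered 5 to 8 differed from those numbered 1 to 4 within every HFD group in Malat1 and, without overlap, in 3 of the members. Malat1, an abundant nuclear RNA, averaged 9.05 on arrays 5 to 8 against 6.79 on arrays 1 to 4 at 7 days, 8.96 against 6.195 at 14 days and 9.39 against 6.97 at 21 days, with no overlap. Members that were higher on all arrays 5 to 8 than on all arrays 1 to 4 were Acadm, Decr1 and Eci1 at 7 days and Acadm, Decr1, Etfdh and Eci1 at 14 and at 21 days, where 3.94%, 4.52% and 8.94% of all genes were. No member was lower throughout on arrays 5 to 8 in any group, where 5.25%, 4.67% and 9.39% of all genes were. The widest gap was that of Etfdh at 21 days, 10.54 ± 0.16 on arrays 5 to 8 and 9.68 ± 0.26 on arrays 1 to 4 (SD, n = 4 each), and Acadm at 21 days stood at 10.52 ± 0.19 and 9.91 ± 0.27. Hadh averaged 10.43 ± 0.21 on arrays 5 to 8 and 10.48 ± 0.21 on arrays 1 to 4 at 21 days.

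Arrays 5 to 8 and arrays 1 to 4 were each set against the same 18 controls, and the difference between the 2 results was not itself tested. Etfdh at 21 days was 0.57 higher than controls on arrays 5 to 8 (limma adjusted p = 0.0143) and -0.29 on arrays 1 to 4 (adjusted p = 0.259). Acadm at 21 days was 0.50 on arrays 5 to 8 (adjusted p = 0.0387) and -0.11 on arrays 1 to 4 (adjusted p = 0.700). Decr1 was 0.75 and 0.30 at 21 days (adjusted p = 3.57e-04 and 0.109), and Eci1 0.71 and 0.18 (0.00132 and 0.418). The labels do not say what the numbers stand for. With Malat1 as a covariate of all arrays, 8 members were called higher at 7 days, 7 at 14 days and 4 at 21 days, against 1.55%, 0.645% and 0.511% of all genes, which are also above the shares without the covariate. Acadm then changed by 0.39 at 7 days (adjusted p = 9.09e-04) and Etfdh by 0.46 (adjusted p = 0.00297).

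The same members varied together among the controls, where no HFD array enters. Over the 18 control arrays, 45 pairs of members were examined, with Pearson's r from -0.69 to 0.90 (median 0.25), and 9 pairs had both a Pearson and a Spearman adjusted permutation p under 0.05, all with r above 0. They fell into a pair of sets. Acadm and Etfdh were the closest pair (r = 0.90, rho = 0.93, adjusted permutation p = 4.5e-04 for both, r = 0.89 without the 2 arrays farthest from the median). Decr1 and Eci1 followed at r = 0.83, and the other pairs of these 4 genes ran from 0.59 to 0.74. In the second set, Hadha and Hadh had r = 0.82 (rho = 0.67, adjusted permutation p = 0.00165 and 0.0167), Hadh and Acadl r = 0.66, and Hadha and Acadl r = 0.65, which rested on 2 arrays (0.35 without them). Between the sets, Acadl ran against Decr1 (r = -0.69, rho = -0.57, adjusted permutation p = 0.0102 and 0.0723). It also ran against Eci1 (r = -0.63, rho = -0.51, 0.0223 and 0.128). Both pairs passed for Pearson's r and not for Spearman's rho. Of the 45 pairs, 28 had r above 0. Hadha and Hadhb, whose starts face away from each other across the stretch shown above, had r = -0.14 (rho = 0.04, r = 0.17 without 2 arrays). The Hadhb signal cannot be told apart from that of a transcribed copy, so this pair may not compare the 2 neighbouring genes. Malat1 went with the first set, with r = 0.74 for Acadm, 0.74 for Decr1, 0.64 for Etfdh and 0.78 for Eci1, the 4 of 10 relations that passed in the same way (adjusted permutation p at most 0.0113 for Pearson's r). All these values share the arrays, their scaling and any RNA quality they carry. How many other genes or gene pairs would pass in the same way was not counted, so these counts are not set apart from those of genes at large.

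**Figure D4:**
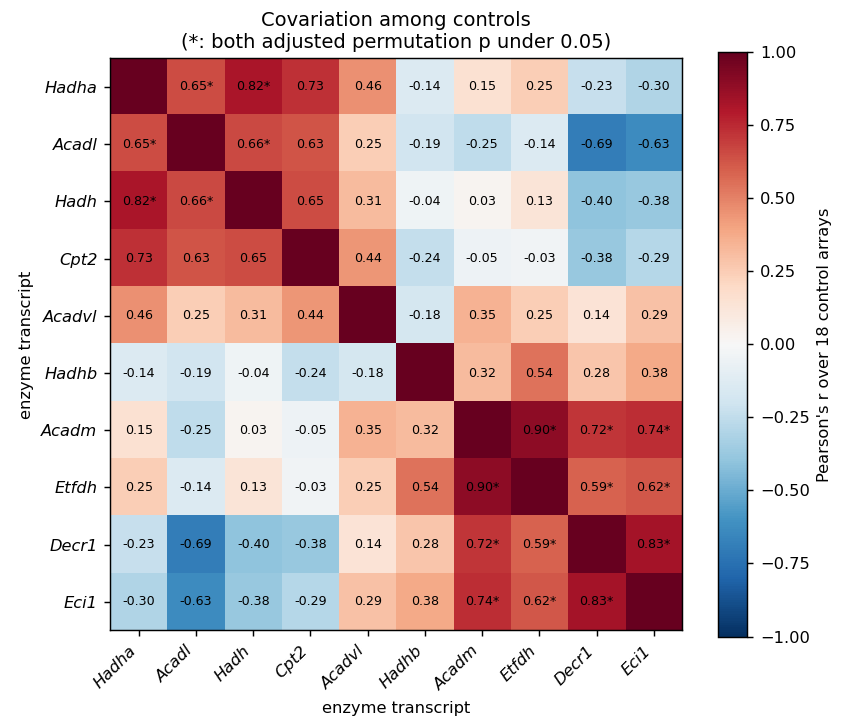
Pearson's r between each 2 of the 10 enzyme transcripts over the 18 control arrays (colour and printed value); a star marks pairs with both adjusted permutation p under 0.05. Acadm, Etfdh, Decr1 and Eci1 form one block with r from 0.59 to 0.90, and Hadha, Acadl and Hadh another with r from 0.65 to 0.82.

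Around these 10 enzymes, other genes of the pathway were counted from lists drawn from textbook knowledge. These lists too were chosen with earlier results of these data known. Of 9 other enzymes of the spiral or its auxiliary steps, 2 were called higher at 7 days and 1 at 14 and at 21 days. Eci2, a further enoyl-CoA isomerase, rose by 0.71, 0.64 and 0.56 at 7, 14 and 21 days (limma adjusted p = 3.71e-06, 6.78e-05 and 5.66e-04), and Acad11, an acyl-CoA dehydrogenase family member, by 0.51 at 7 days (adjusted p = 0.00287). Of the other spiral enzymes looked at by name, 3 did not pass at any time. Acads, the short-chain dehydrogenase, changed by 0.24, 0.27 and 0.28, Echs1, the short-chain hydratase, by 0.12, 0.02 and 0.07, and Acaa2, the matrix thiolase, by 0.17, 0.12 and 0.15 (adjusted p at least 0.140 in all 9 tests). Etfa and Etfb, the subunits of the flavoprotein that feeds Etfdh, changed by 0.14 and 0.10 at 7 days, and 0 of 5 genes of electron transfer to ubiquinone were called at any time.

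On the carnitine side, 3 of 6 measured genes were called higher at each time. Crat, the carnitine acetyltransferase, averaged 7.78 ± 0.27 at 7 days, 7.59 ± 0.28 at 14 days and 7.47 ± 0.36 at 21 days (SD, n = 8 each), against 6.59 ± 0.43 in controls (n = 18), and rose by 1.19, 0.996 and 0.88 (limma adjusted p = 3.12e-07, 2.51e-05 and 2.6e-04). Slc25a20, which carries acylcarnitine across the inner membrane to Cpt2, rose by 0.55, 0.48 and 0.49, and Slc22a5, the plasma membrane carnitine transporter, by 0.56, 0.64 and 0.66. Ppara, the nuclear receptor, rose by 0.65 at 7 days and 0.55 at 14 days (adjusted p = 0.00265 and 0.036), and its 21-day change of 0.34 did not pass (adjusted p = 0.530). It was the single called gene among 12 regulators. Of 3 measured genes of ketone body synthesis, 2 rose at each time: Bdh1, which reduces acetoacetate, by 0.75, 0.63 and 0.53, and Acat1, the mitochondrial thiolase that joins acetyl-CoA units, by 0.51, 0.36 and 0.37.

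The peroxisomal beta-oxidation system, which handles very long and branched chains, had 5 of 10 measured genes called higher at 7 days, 5 at 14 days and 4 at 21 days. Abcd2, a peroxisomal fatty acyl-CoA transporter, rose by 1.90, 1.84 and 1.63, more than any of the 10 mitochondrial enzymes. Acaa1b, a peroxisomal thiolase, rose by 0.86, 0.66 and 0.71, and Decr2, the peroxisomal counterpart of Decr1, by 0.80, 0.72 and 0.60. Ehhadh, the peroxisomal bifunctional enzyme, rose by 0.84 and 0.65 at 7 and 14 days, and its 21-day change of 0.47 did not pass (limma adjusted p = 0.0738). Abcd3 rose by 0.50, 0.44 and 0.38. Acyl-CoA activation had 1 of 8 called at 7 days (Acsl5, an acyl-CoA synthetase, 0.41, limma adjusted p = 0.0456) and 0 later, and the odd-chain propionyl-CoA route 0 of 4 at any time. No gene of these lists was called lower at any time.

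**Figure D5:**
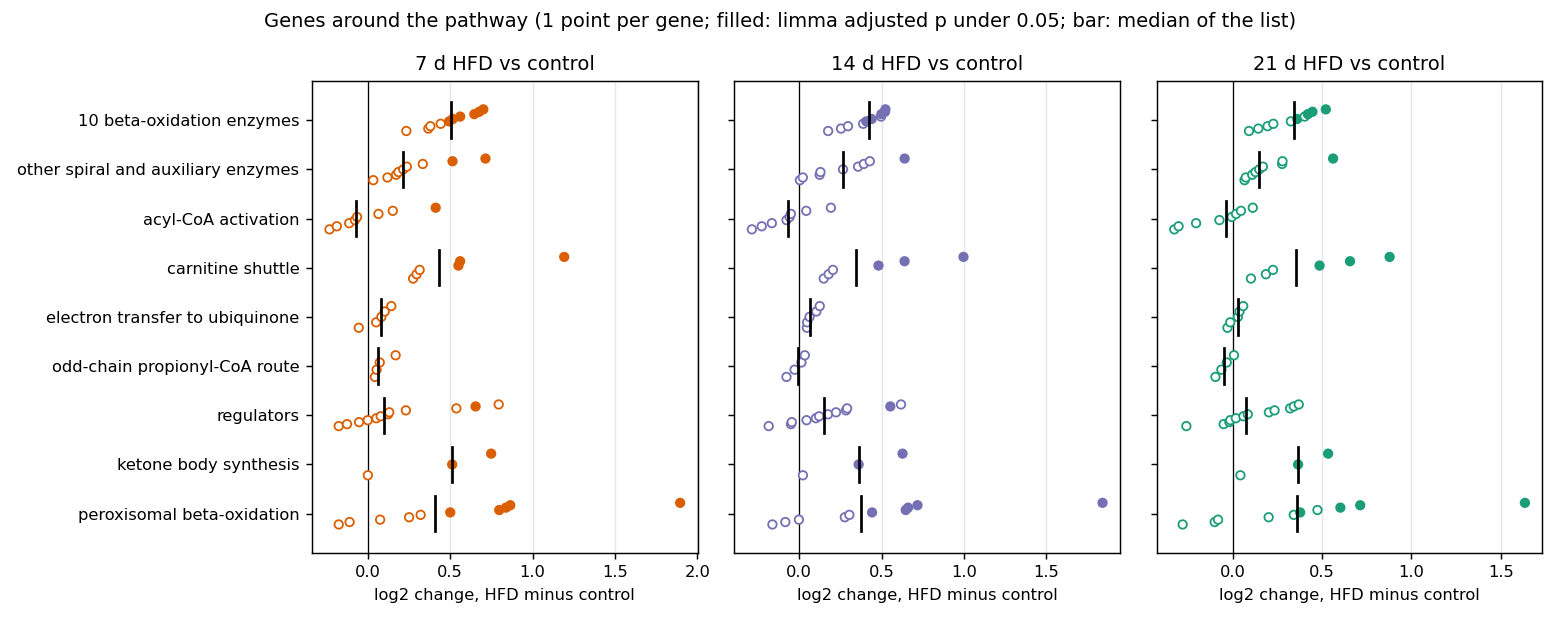
Log2 change (HFD minus control, horizontal axis) of each measured gene of the 10 enzymes and of 8 surrounding lists at 7, 14 and 21 days; points are genes, filled where the limma adjusted p was under 0.05, and the bar is the list's median. The 10 enzymes have medians of 0.51, 0.42 and 0.34, acyl-CoA activation medians of -0.07, -0.07 and -0.04.

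The genes whose pattern over the arrays was most like that of the 10 enzymes were found by Pearson's r with the mean of the members' standardised values over all 42 arrays, as a description. With the group means kept, these were Dhrs4, a short-chain dehydrogenase/reductase (r = 0.93), Abcd3, a peroxisomal fatty acyl transporter (0.92), Acad11 (0.91), Plin2, a lipid droplet coat protein (0.90), Bdh1 (0.90) and Slc17a8, a vesicular glutamate transporter (0.88). With each group's mean subtracted, mean differences between groups no longer enter, while the spread within the HFD groups still does. The genes were then Hspa9, the mitochondrial matrix chaperone (0.92), Suclg2, a subunit of succinyl-CoA synthetase (0.91), and Sec63, part of the endoplasmic reticulum translocon (0.88). After them came Eif3a, a translation initiation factor subunit (0.88), Rab14, a vesicle traffic GTPase (0.87), and Proz, the secreted protein Z (0.87). No gene was in both sets of 6. In the controls alone r was 0.71 for Dhrs4 and 0.88 for Hspa9.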

How the data were processed

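Liver RNA was labelled with the WT Sense Target Labeling Assay and hybridised to Affymetrix whole-transcript arrays, per the labels' protocols. The deposited values are log2 signals that the authors made with RMA in Affymetrix Expression Console 1.1, per the submitters' processing notes; RMA had scaled the arrays, and no scaling was added (array medians 3.08 to 3.28). The platform annotation gave 1 symbol to 19559 of 32624 probe sets, 1469 had several and 11596 none. The brightest probe set stood for a gene, and no dim genes were removed. For 1 probe set 33 arrays held no value, and it was not tested. All 42 arrays entered 1 fit of 4 groups (limma 3.58.1, R 4.3.3, lmFit and eBayes), with 2-sided tests and Benjamini-Hochberg adjustment over 17989 genes; genes under 0.05 were called. The method was tested on simulated data. Correlations used 100000 permutations (Python 3.11.15, scipy 1.17.1), adjusted over 45 pairs or 10 Malat1 relations. Arrays carry no read depth, so their number limits the precision (median SE of a log2 difference 0.09 against controls and 0.11 between HFD times over all genes). The members and lists were chosen with earlier results of these data known. All 10 members are named, and from each other list up to 4 called genes per time with the largest changes plus 10 fixed genes, of which 7 were measured. Alternatives covered scaling, the filter, probe set choice, array weights, the prior, a block, covariates, subsets of arrays and single arrays left out.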

Additional observations from a re-analysis of the deposited data

Results flagged for a closer look

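Among 30 sets of 8 HFD values (10 members at 3 times), 3 held an array far from the other 7 by Dixon's 95% criterion, which chance alone meets in about 5% of groups. Hadh at 14 days had its lowest value, 10.16, on replicate 6. Acadvl at 21 days had its lowest value, 7.985, on replicate 3, where the acinar marker mean was 4.60 and Malat1 was 6.2. Cpt2 at 7 days had its highest value, 8.599, on replicate 6.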

How the results depend on the processing

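The count of members called at 7 days (6) stayed within 1.5 times under every alternative run, and the counts between HFD times stayed 0 in all. Which members were called at 7 days did change. Eci1 lost its call with HFD arrays 1 to 4 only (limma adjusted p = 0.258) and Acadl with HFD arrays 5 to 8 only (0.0840). Array weights added calls of Acadm, Acadvl and Etfdh. The Malat1 covariate and HFD arrays 5 to 8 only each added Acadm and Etfdh, and fitting only the groups compared added Etfdh. The 14-day count (5) was 2 with the replicate number as a block and 3 with HFD arrays 1 to 4 only, with HFD arrays 5 to 8 only, with controls 1 to 9 only and with controls 10 to 18 only. The 21-day count (4) was 2 with median centring, with all probe sets tested, with only the groups compared, with array weights, with a trended robust prior, with the acinar marker mean as a covariate and with controls 10 to 18 only. It was 1 with the replicate block, with HFD arrays 1 to 4 only and with controls 1 to 9 only. It rose with HFD arrays 5 to 8 only, where Acadm and Etfdh were called as well (limma adjusted p = 0.0387 and 0.0143). With single arrays left out in turn the count ran from 6 to 7 at 7 days, from 5 to 5 at 14 days, from 2 to 4 at 21 days and from 0 to 0 between HFD times and in the F test.

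The 21-day calls of Hadhb and Eci1 were near the threshold. Hadhb kept its call in 30 of 42 fits without 1 array (highest adjusted p 0.158) and lost it without control replicate 3, 7, 10, 11, 14, 17 or 18 or 21-day replicate 1, 5, 6, 7 or 8. Eci1 kept its call in 13 of 42 (highest adjusted p 0.214) and lost it without control replicate 1, 2, 4, 5, 6, 7, 9, 10, 11, 12, 13, 14, 16 or 17, 7-day replicate 1, 4, 6 or 8, 14-day replicate 1, 2, 4, 5, 7 or 8, or 21-day replicate 1, 5, 6, 7 or 8. Changes turned negative only with HFD arrays 1 to 4 alone: Acadm at 14 days -0.0207 and at 21 days -0.11, Acadvl at 21 days -0.10 and Etfdh at 21 days -0.29, none of which passed. Hadh at 7 and 21 days, Hadhb at 7 and 14 days, and Hadha and Decr1 at 7 days kept their calls in all 15 alternatives and in all 42 fits without 1 array. Where a setting changed a count the cause was not tested. The subsets also held fewer arrays, and the part this played was not tested either. All members lay above the background level of 2.86 on every array, and whether signal level played a part in any result was not tested.

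The labels do not say that equal replicate numbers share an animal or a day. Deviations of same-numbered arrays correlated above 0.1 in 17 of 24 pairs between HFD groups and in 5 of 24 pairs of an HFD with a control array, and 4 and 2 pairs were best with their own number. The numbers thus carried some structure among the HFD groups, as the arrays numbered 5 to 8 also show, but not every pair correlated, and the block was kept as an alternative.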
